A study of Mus musculus with 10 samples.

Results

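The miR-148/miR-152 family was followed through 10 small RNA libraries of mouse retina. Its 6 members, both arms of 3 hairpins, were taken by name from the 1061 mature miRNAs of the deposited table: mmu-miR-148a-3p, mmu-miR-148a-5p, mmu-miR-148b-3p, mmu-miR-148b-5p, mmu-miR-152-3p and mmu-miR-152-5p, written without the species prefix from here on. The libraries came from both retinas of 5 wild type C57BL/6J mice, numbers 61, 64, 65, 66 and 68, at postnatal day 34. From postnatal day 24 each mouse had worn a -20 D lens, which shifts the image behind the retina and brings on myopia, over 1 eye for 10 days, and its other eye was left without a lens. There were 5 left and 5 right libraries, and since the labels name the side of a retina but not the side of the lens, right was compared with left within each mouse and neither side is called treated. Whole retina was used, so a miRNA made by few cells and a miRNA made at a low level by many cannot be told apart.

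A miRNA is cut from a hairpin precursor as a short duplex, whose strands are named 5p and 3p after the arm they come from. One strand is usually loaded into an Argonaute protein and guides it to mRNAs that match the seed, bases 2 to 8 of the miRNA, and the other strand is mostly degraded. The 3p strands of miR-148a, miR-148b and miR-152 are known as the guides of this family and repress, among others, the mRNAs of the DNA methyltransferases Dnmt1 and Dnmt3b. miR-148a is also known from liver, where it represses the LDL receptor and the cholesterol exporter ABCA1.

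The mature sequences are given first because they show what the members share. They are RefSeq's (GRCm38.p6), printed 5′ to 3′ with the seed in capitals, and all 6 members were found there.
miR-148a-3p: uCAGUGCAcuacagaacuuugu
miR-148b-3p: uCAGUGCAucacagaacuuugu
miR-152-3p: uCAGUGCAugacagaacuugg
miR-148a-5p: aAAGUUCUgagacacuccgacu
miR-148b-5p: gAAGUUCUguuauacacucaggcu
miR-152-5p: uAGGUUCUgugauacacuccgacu

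The 3 guides had the same seed. Of the 909 miRNAs of the table with a mature sequence in RefSeq, these 3 held it and no other did. Positions are counted from 1 at the 5′ end, and the base of the miRNA named before the other stands before the position. miR-148a-3p and miR-148b-3p were identical at 20 of 22 positions and differed by C9U and U10C. miR-148a-3p and miR-152-3p differed by C9U, U10G and U20G over 21 positions, and miR-148b-3p and miR-152-3p by C10G and U20G. How many mismatches the alignment allowed is not given in the sources, so reads could have been exchanged between the 3 guides, and their separate values carry that uncertainty. miR-148b-3p differs from miR-152-3p over the shared 21 positions at as few places as from miR-148a-3p and had a median of 79.3 times its level, so the limit also touches the level of miR-152-3p and the arm ratio of miR-152. The 5p strands were less alike. miR-148a-5p and miR-148b-5p shared a seed that only these 2 of the 909 miRNAs held, and miR-152-5p had another seed, with A3G from each of them to miR-152-5p.

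The seed of the 3 guides also opens the miR-130/miR-301 miRNAs, where it lies at bases 1 to 7 instead of bases 2 to 8. They are shown for this shift of 1 base, with the shared letters in capitals.
miR-130a-3p: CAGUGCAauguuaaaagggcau
miR-130b-3p: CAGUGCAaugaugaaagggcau
miR-301a-3p: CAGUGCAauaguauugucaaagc

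RefSeq's table gives 1 locus for each member. In GRCm38, miR-148a-3p lay on the minus strand of chromosome 6 from 51269829 to 51269850 and miR-148a-5p from 51269867 to 51269888, outside other annotated genes, with Nfe2l3 as the nearest protein-coding gene at 163 kb. miR-148b-5p (chromosome 15, 103285148 to 103285171) and miR-148b-3p (103285185 to 103285206) lay in an intron of Copz1 on its own strand. miR-152-5p (chromosome 11, 96850400 to 96850423) and miR-152-3p (96850439 to 96850459) lay in an intron of Copz2 on its own strand. Copz1 and Copz2 encode alternative zeta subunits of the COPI vesicle coat. The precursors are shown with both mature strands in capitals, for the comparison of arms that follows.
miR-148a: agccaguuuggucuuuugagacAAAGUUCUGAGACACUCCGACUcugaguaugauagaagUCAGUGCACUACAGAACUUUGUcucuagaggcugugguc
miR-148b: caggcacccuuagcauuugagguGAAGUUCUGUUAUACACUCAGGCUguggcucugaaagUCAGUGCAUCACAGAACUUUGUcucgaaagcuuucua
miR-152: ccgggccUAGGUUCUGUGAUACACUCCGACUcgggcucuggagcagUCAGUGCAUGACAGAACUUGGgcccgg

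Values are normalised reads, the unit of the deposited table. All libraries summed to nearly the same total, 17312269 to 17312436, and the sequencing depth is unknown. At 342 of 1061 ranks all libraries held the same value. These include ranks at 0 in every library, since each library held 162 to 239 zeros. miR-148b-3p was at 8350.17 in each library where it held rank 46. A value is therefore read as a place in the order of its library, although values differed between libraries at the other ranks. The 6 members were among the 484 miRNAs with a mean of at least 10 normalised reads, which were tested. The median correlation of a library to the other libraries ran from 0.984 to 0.990. It is dominated by the wide range of levels among miRNAs and would not show a library that differs in some of them. Ligation of adapters favours some sequences, so an order of different miRNAs holds for these libraries and is not a molar order.

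miR-148b-3p and miR-148a-3p made up nearly all of the family. miR-148b-3p was at 8571 ± 713 and miR-148a-3p at 5780.3 ± 646 normalised reads (SD over 10 libraries), and miR-152-3p, with the same seed, at 112 ± 12.6. The 5p strands followed with 83.3 ± 17.3 for miR-148a-5p, 73.0 ± 8.85 for miR-148b-5p and 32.5 ± 8.23 for miR-152-5p. All members together had 0.0846% ± 0.00731 (SD) of the normalised total. Of the normalised reads of the 3 guides, 59.3% ± 2.03 were miR-148b-3p, 39.9% ± 2.02 miR-148a-3p and 0.781% ± 0.106 miR-152-3p.

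The order of the guides was the same in all 10 libraries. miR-148b-3p was above miR-148a-3p in 10 of 10 libraries, by a ratio from 1.32 to 1.68, and their ranges did not overlap. miR-148a-3p was 39.2 to 60.7 times the level of miR-152-3p. Among the lower members neighbours were not separated, since miR-152-3p was above miR-148a-5p in 9 of 10 libraries and miR-148a-5p above miR-148b-5p in 6 of 10, with overlapping ranges in both cases. miR-148b-5p was above miR-152-5p in 10 of 10 libraries, without overlap. By rank among the 1061 miRNAs, miR-148b-3p lay from place 41 to 50, miR-148a-3p from 53 to 66, miR-152-3p from 241 to 266 and miR-152-5p from 326 to 420.5, where tied miRNAs share a mean place.

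**Figure D1:**
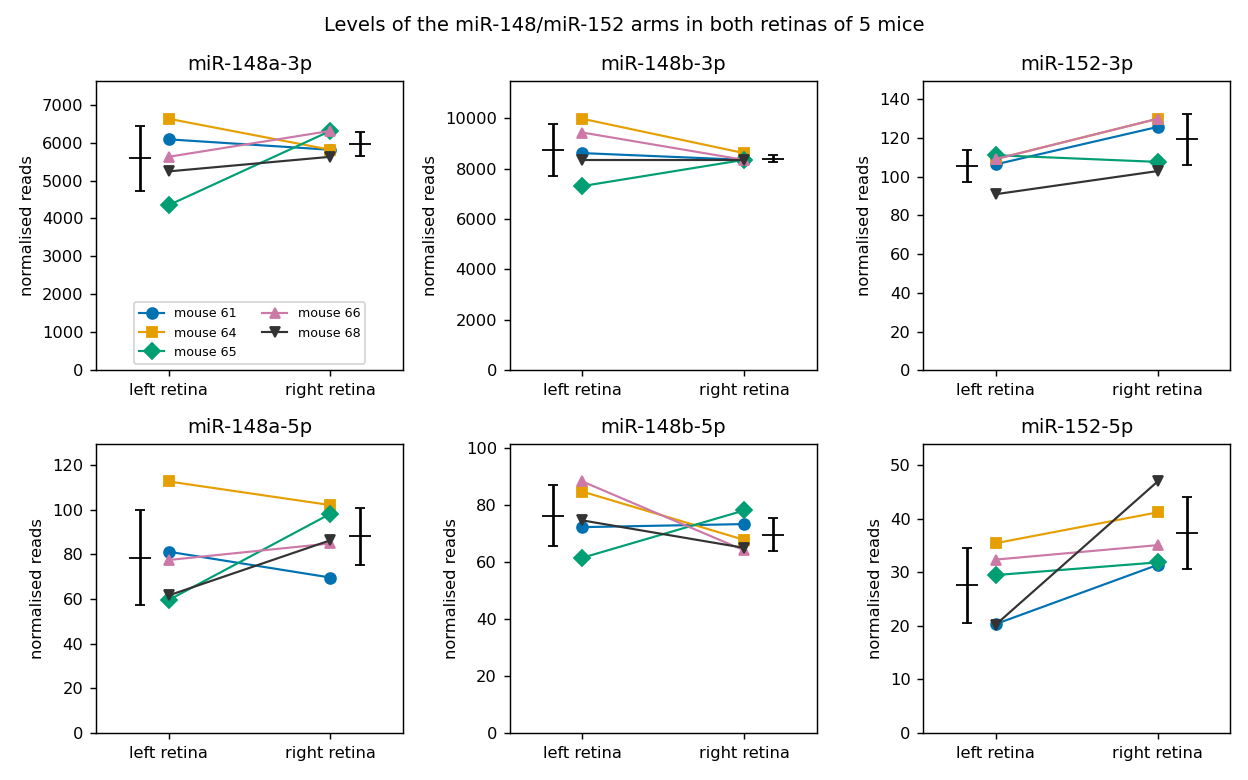
Normalised reads of the 6 arms in the left and right retina of 5 mice, with lines joining the eyes of a mouse and bars for the mean and SD of each side. Of the right retinas, 4 share 1 value of miR-148b-3p, and miR-152-5p is higher on the right in 5 of 5 mice.

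Right and left retinas were compared to find out whether a miRNA differs between the sides. Whether all mice wore the lens on the same side is not given. If they did not, a difference that follows the lens would change sign between mice, so this comparison cannot answer for the lens. No family member passed this test, and the values of the sides overlapped for all 6, while they were apart for 4 of the 484 miRNAs tested (0.826%). By limma, with mouse as a block, 0 of the 6 members and 0 of the 484 miRNAs tested (0%) had an adjusted p under 0.05, and at an unadjusted p under 0.05 there were 0 members and 12 miRNAs (2.48%). The log2 fold change, right minus left, was positive for 4 members and negative for 2, and its median was 0.14, against 224 positive, 253 negative, 7 at 0 and a median of -0.01 over all tested.

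Among the guides, miR-148b-3p was at 8618, 9982, 7309, 9435 and 8350.2 normalised reads in the left retinas of mice 61, 64, 65, 66 and 68. In the right retinas it was at 8350.2, 8618, 8350.2, 8350.2 and 8350.2. Almost all of its variation was on the left, where mouse 64 was high and mouse 65 low, and the sides overlapped. Around its rank, a move by 1 place changes the value by 0.05 to 0.06 on the log2 scale. Its log2 fold change was -0.05 (SE 0.07; adjusted p by limma 0.971), and the 95% interval of the right to left fold ran from 0.863 to 1.08.

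miR-148a-3p was at 6086, 6629, 4352, 5627 and 5242 normalised reads in the left retinas, in the same order of mice. The right retinas had 5811, 5811, 6309, 6309 and 5627. The left retina of mouse 65 was the lowest of all and that of mouse 64 the highest, with the right retinas between them. The right value was higher in 3 of 5 mice, the log2 fold change was 0.11 (SE 0.11; adjusted p by limma 0.958) and the interval of the fold ran from 0.903 to 1.29. Without mouse 65 the log2 fold change of miR-148a-3p was 0.00 and that of miR-148b-3p was -0.11.

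miR-152-3p, the guide from the Copz2 intron, had 106, 109, 111, 109 and 91.0 normalised reads on the left. On the right it had 126, 129.95, 108, 129.95 and 103. The right value was higher in 4 of 5 mice, all but mouse 65, and the sides overlapped. Its log2 fold change was 0.17 (SE 0.08) with an adjusted p by limma of 0.958, and the fold interval ran from 0.981 to 1.30. Of all miRNAs tested, 72 (14.9%) were higher on the right in at least 4 of 5 mice.

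miR-152-5p, the opposite strand of the same hairpin, was at 20.4, 35.5, 29.5, 32.4 and 20.3 normalised reads in the left retinas. In the right retinas it was at 31.4, 41.2, 31.9, 35.1 and 47.0. It was the member with the largest difference and the only one with 1 direction in all mice, higher on the right in 5 of 5, as were 9 of the 484 miRNAs (1.86%). The log2 fold change was 0.44 (SE 0.19), the fold 1.36 with an interval from 0.987 to 1.87, and the adjusted p by limma 0.958 at an unadjusted p of 0.0575. Mouse 68 had the widest gap, 1.17 on the log2 scale, and without it the log2 fold change was 0.26. In the left retina of mouse 68, the lowest of the 10 libraries for both arms of miR-152, the summed level of the 4 skeletal muscle markers miR-133a-3p, miR-133b-3p, miR-1a-3p and miR-206-3p was 1742 normalised reads. Of this sum, 1596 was miR-133a-3p, and all 4 markers were at their highest there. In the other left retinas this sum lay between 295 and 381 and in the right ones between 279 and 399.6. In some libraries miR-1a-3p and miR-206-3p were listed at 0. The left retina of mouse 61, with nearly the same value of miR-152-5p as that of mouse 68, had a sum of 321. The part of the muscle markers in the value of miR-152 was not tested.

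Of the strands opposite the abundant guides, miR-148a-5p had 81.1, 113, 59.5, 77.4 and 61.5 normalised reads on the left. On the right it had 69.5, 102, 98.1, 84.8 and 86.2. The sides overlapped, with the right value higher in mice 65, 66 and 68 and lower in mice 61 and 64. The log2 fold change was 0.19 (SE 0.16; adjusted p by limma 0.958), and with each mouse left out it ran from 0.06, without mouse 65, to 0.30, without mouse 61. miR-148b-5p was at 72.3, 84.8, 61.5, 88.4 and 74.7 on the left and at 73.4, 67.8, 78.2, 64.2 and 65.03 on the right. In 3 of 5 mice the right value was the lower one. The log2 fold change was -0.12 (SE 0.13; adjusted p by limma 0.971), and it went to -0.24 without mouse 65 and to -0.04 without mouse 66.

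**Figure D2:**
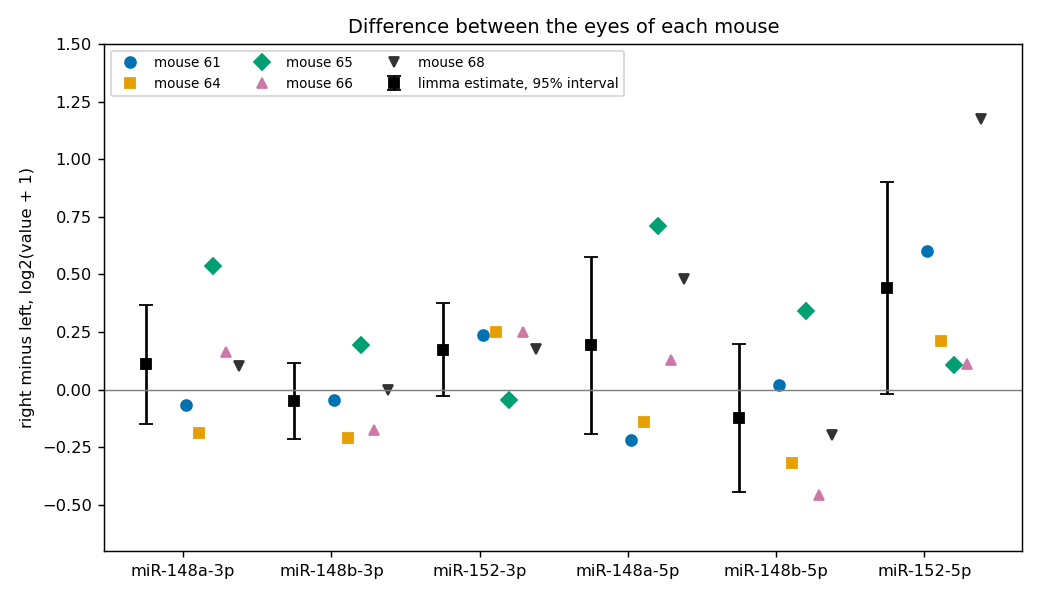
Right minus left difference of log2(value + 1) for each arm, with 1 symbol per mouse and the limma estimate with its 95% interval as a black square. All 6 intervals include 0. The green diamonds of mouse 65 lie above 0 for the 4 arms of miR-148a and miR-148b and for miR-152-5p, and below 0 for miR-152-3p.

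The eyes of mice 64 and 65 differed in opposite directions for miR-148a and miR-148b. All 4 arms of these hairpins were lower in the right than in the left retina of mouse 64 and higher in the right retina of mouse 65. For miR-148a-3p the differences were -0.19 in mouse 64 and 0.54 in mouse 65 on the log2 scale, for miR-148b-3p -0.21 and 0.19, for miR-148a-5p -0.14 and 0.71 and for miR-148b-5p -0.32 and 0.34. Of all miRNAs tested, 129 (26.7%) were below 0 in mouse 64 and above 0 in mouse 65. These mice were picked after seeing the data, and the 4 arms vary together, so they are not 4 separate observations. The left retina of mouse 64 was the highest of the 10 libraries for miR-148a-3p, miR-148b-3p and miR-148a-5p, as it was for 41 of the 484 miRNAs (8.47%). The left retina of mouse 65 was the lowest for these 4 arms, as it was for 62 of the 484 miRNAs (12.8%), and it was not the lowest for either arm of miR-152. That library also had the lowest summed level of the fibroblast markers miR-199a-3p and miR-214-3p, 251 normalised reads against 267 to 388 in the other left retinas and 304 to 421 in the right ones. This came from miR-199a-3p, which was at its lowest with 239, while miR-214-3p, at 11.7, was not. Its sum of the lens and cornea markers miR-184-3p and miR-205-5p was the lowest too, with 999 against 1512 to 2073 in the other left retinas, and both markers were at their lowest, with 988 and 10.9. The right retina of the same mouse had a sum of 22409, of which miR-184-3p made up 22384, while miR-205-5p, at 25.6, was not high there. None of these 4 markers was at 0 in any library. In the left retina of mouse 65 the photoreceptor markers miR-182-5p, miR-183-5p and miR-96-5p had their lowest sum too, 10550828 against at most 10579078 normalised reads. This order was that of miR-96-5p alone, at its lowest with 20983, since miR-182-5p and miR-183-5p held the same value in all 10 libraries. The sum of the miR-29 family was also lowest in that library, with 9122. Its sum was the 2nd lowest for pigment epithelium markers and the 9th from the lowest for mural cell markers. Of the pigment epithelium markers, miR-204-5p held the same value in all libraries and miR-211-5p was the 2nd lowest with 9068. The others were not low, with miR-204-3p the 7th from the lowest at 61.5 and miR-211-3p the 9th at 88.4. The erythrocyte markers miR-451a, at 24.3, and miR-144-3p, at 4.43, were at their lowest in that library. So were the leukocyte markers miR-142a-3p, at 1.59, and miR-142a-5p, at 51.9. Other markers of these lists were not, with miR-486a-5p the 5th from the lowest at 2820, miR-150-5p the 6th at 1898 and miR-223-3p the 4th. Of these, miR-142a-3p and miR-223-3p were too low to be tested. The part of other tissue or of other retinal cells in these differences was not tested.

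Animals were compared as well, since each gave a pair of retinas. No family member passed the test of differences between mice, in which a mouse cannot be told apart from anything handled together with it. In limma's F test of the mouse terms, 0 of the 6 members and 8 of the 484 miRNAs (1.65%) had an adjusted p under 0.05, and at an unadjusted p under 0.05 there were 0 members and 68 miRNAs (14.0%). The adjusted p by limma ran from 0.603 for miR-152-3p to 0.996 for miR-148b-5p.

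The spread of the members over the 10 libraries was set beside that of tested miRNAs of similar level, within a factor of 2 of the mean. miR-148b-3p had an SD of 0.12 on the log2 scale, against a median of 0.19 for 33 such miRNAs, of which 8 had a lower SD. For miR-152-3p the SD was 0.16, and 9 of 108 miRNAs of similar level had a lower one. miR-148b-5p had an SD of 0.17, with 10 of 127 below it. Between the eyes of a mouse these 3 were not among the steadier ones. The median absolute difference was 0.18 on the log2 scale for miR-148b-3p, with 20 of 33 below it, 0.24 for miR-152-3p, with 55 of 108 below it, and 0.32 for miR-148b-5p, with 71 of 127 below it. miR-148a-3p, with 0.17 and 17 of 38 below it, miR-148a-5p, with 0.30 and 69 of 118 below it, and miR-152-5p, with 0.37 and 86 of 145 below it, were near the middle of their level.

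**Figure D3:**
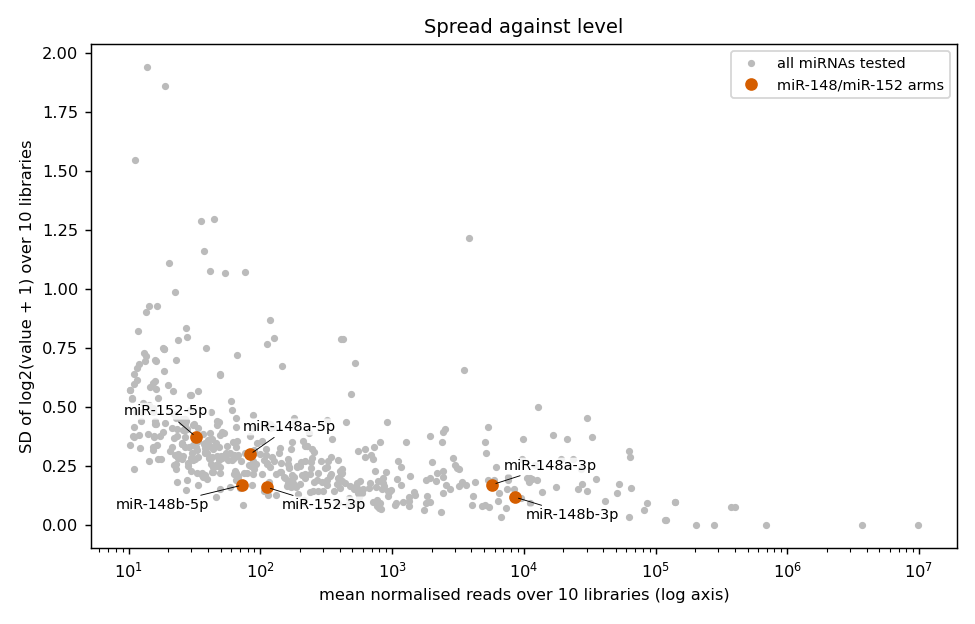
SD of log2(value + 1) over the 10 libraries against the mean normalised reads on a log axis for the 484 miRNAs tested, in grey, with the 6 arms in orange. miR-148b-3p, miR-152-3p and miR-148b-5p lie in the lower part of the cloud at their level, and miR-152-5p has the widest spread of the 6.

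The balance of the arms separated miR-152 from its relatives. The 3p strand was the more abundant in every hairpin and library. The 3p to 5p ratio of normalised reads had a median of 118 for miR-148b, with a range from 107 to 130.13 over 10 libraries. For miR-148a the median was 72.9 with a range from 57.0 to 85.2, and for miR-152 it was 3.54 with a range from 2.19 to 5.23. The ranges of the 3 hairpins did not overlap. The 3p strand thus held 99.2% of the normalised reads of both arms in miR-148b, 98.6% in miR-148a and 78.0% in miR-152, as medians. Among 126 hairpins with both arms tested, 57 had the higher mean in the 3p arm, and the ratio of the major to the minor arm had a median of 9.503. Ordered by this ratio, miR-148b took place 25, miR-148a place 29 and miR-152 place 84. The ratios depend on how well each strand is ligated and are not molar. They are ratios of normalised values, which follow rank, and not of sequenced reads.

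Between the eyes the arm ratio differed by less than its SD over mice, and it was not tested. On the log2 scale, right minus left, the difference was 0.07 ± 0.18 in miR-148b, -0.08 ± 0.20 in miR-148a and -0.27 ± 0.45 in miR-152 (SD, n = 5 mice). For miR-152 the ratio was 4.49 in the left and 2.19 in the right retina of mouse 68, the widest gap among the mice, while in mice 64 and 66 it was higher on the right. Without mouse 68 the difference was -0.08 in miR-152 and -0.01 in miR-148a, and in miR-148b it was 0.02 without mouse 66 and 0.13 without mouse 65.

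**Figure D4:**
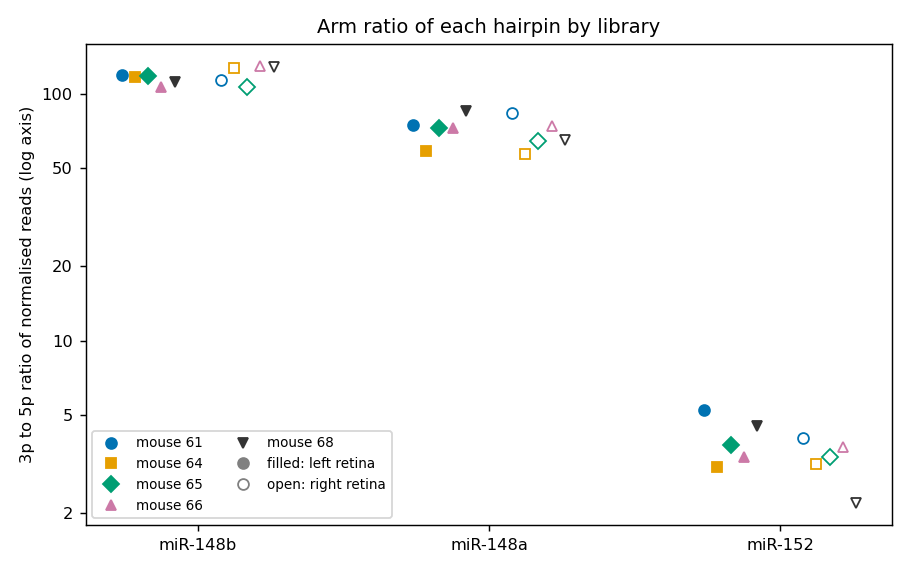
Ratio of 3p to 5p normalised reads on a log axis for each hairpin and library, with filled symbols for left and open symbols for right retinas. The 10 libraries lie between 107 and 130.13 for miR-148b, between 57.0 and 85.2 for miR-148a and between 2.19 and 5.23 for miR-152.

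The arms of a hairpin, which come from the same precursor, had similar profiles over the libraries in miR-148a and miR-148b. Over the 10 libraries, which are pairs from 5 mice and share their normalisation, Pearson's r of log2(value + 1) between the arms was 0.81 for miR-148b (Spearman's rho 0.65), 0.80 for miR-148a (rho 0.75) and 0.49 for miR-152 (rho 0.32). These values are descriptions without a test. Among the 481 other tested miRNAs that varied, miR-148b-5p had the highest r with miR-148b-3p, miR-148a-5p the 2nd highest with miR-148a-3p and miR-152-5p the 39th highest with miR-152-3p. Seen from the 5p arms, miR-148a-3p had the 2nd highest r with miR-148a-5p. Neither miR-148b-3p nor miR-152-3p was among the 3 miRNAs most alike to its 5p arm. With the 2 libraries farthest from the median of the 3p arm left out, r was 0.69 for miR-148b, 0.63 for miR-148a and -0.0034 for miR-152. For miR-152 the left retina of mouse 68 and the right retina of mouse 64 were left out. The right retina of mouse 66 had the same value of miR-152-3p as the latter, 129.95, and was kept, so this choice was arbitrary. Without both libraries of mouse 65, an alternative chosen after seeing the data, r was 0.83, 0.73 and 0.49.

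**Figure D5:**
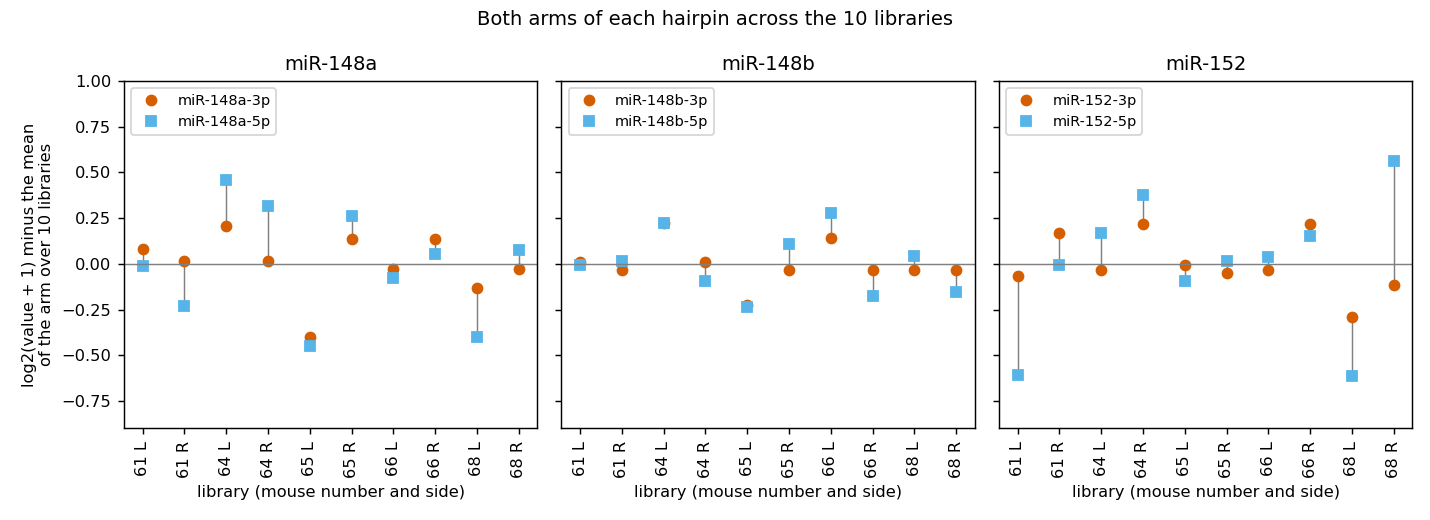
Deviation of log2(value + 1) from the mean of each arm over 10 libraries, with circles for the 3p and squares for the 5p strand and a grey line between the arms of a library. In miR-148a and miR-148b both arms are lowest in the left retina of mouse 65, and in miR-152 the arms lie apart in the left retina of mouse 61 and the right retina of mouse 68.

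Between hairpins, miR-148a-3p and miR-148b-3p had an r of 0.70, which 7 other miRNAs exceeded with miR-148a-3p. miR-152-3p had 0.25 with miR-148a-3p and -0.04 with miR-148b-3p. Beside the partner arms, the miRNAs most alike over the 10 libraries were miR-467c-5p (r = 0.81) and miR-582-3p (0.80) for miR-148a-3p, and miR-182-3p (0.76) and miR-205-5p (0.75) for miR-148b-3p. For miR-152-3p they were miR-7226-3p (0.88), miR-450a-5p (0.87) and miR-28a-3p (0.81). For miR-148a-5p they were miR-351-5p (0.86) and miR-450b-5p (0.79), for miR-148b-5p miR-340-3p (0.84), miR-219a-5p (0.81) and miR-18a-5p (0.81), and for miR-152-5p miR-7235-3p (0.85), miR-3061-5p (0.83) and miR-8103 (0.77).

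Other miRNAs listed for comparison gave no call between the eyes either. In the miR-130/miR-301 family, whose seed is shifted by 1 base, 0 of 4 members passed by limma. Their log2 fold changes were positive for 1 and negative for 3, and the median was -0.04. miR-130a-3p, its most abundant member, had a mean of 6760 ± 206 in left and of 6747 ± 108 in right retinas (normalised reads, SD, n = 5), between miR-148a-3p and miR-148b-3p in level. Of the miR-29 family, which also represses DNA methyltransferases, 0 of 3 passed and 3 were below 0, with a median of -0.22. miR-10a-5p and miR-10b-5p, which lie in Hox clusters, were both below 0 and did not pass. Among 5 miRNAs known to act on cholesterol transport (miR-33-5p, miR-128-3p, miR-30c-5p, miR-27b-3p and miR-144-3p), 0 passed, 1 was above 0, 3 were below and 1 was at 0. miR-128-3p, of this list, differed between mice, from 1535 to 4871 normalised reads over the 10 libraries (adjusted p by limma's F test 0.00390).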

How the data were processed

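Small RNA of 10 mouse retinas was sequenced from 50 ng of small RNA per library, per the labels' protocols. The submitters' processing notes name Partek and Bowtie, with no version, and the builds GRCm38 and mm10. Adapter trimming, alignment mismatches and the miRNA annotation are stated nowhere in the sources used. The deposited values are a signal derived from read counts, which the authors call normalised counts. They behave as quantile-normalised values, so depth is unknown and no counting interval is given. The table held 0 columns of other samples.

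For the 484 of 1061 miRNAs with a mean of at least 10, log2(value + 1), a scale that shrinks the changes of low miRNAs, was modelled in limma 3.58.1 (R 4.3.3) with mouse and side as terms, a mean-variance trend and two-sided moderated tests. The Benjamini-Hochberg adjusted p was over all 484, with a threshold of 0.05. The fit was tested on simulated data, in which 60 of 484 miRNAs were changed between the sides. It called 51.7% of the 1.5-fold, 78.2% of the 2-fold and 96.2% of the 4-fold changes, and 0.59% of the unchanged miRNAs. The simulated noise was normal and independent between miRNAs, without the ties of the deposited values. With 60 miRNAs changed, the adjusted p is also easier to pass than with few. These shares therefore need not hold for the members. Both retinas of a number come from 1 animal. The deviations of the eyes of a mouse from the means of their sides correlated by 0.0893 to 0.382 across miRNAs, against -0.338 to 0.355 with a median of -0.0824 for eyes of different mice. Positions are those of the table in GRCm38, with the last base as the end, and were the same as RefSeq's for 6 of 6 members. Hosts are from GENCODE M21. The members, lists and tests were chosen with earlier results of these data known. Named miRNAs are the 6 members, the tested members of 4 related lists and the 3 miRNAs most alike to each member, and in addition marker miRNAs of other cell types. Alternatives were other pseudocounts, filters and scalings, the fit without the block and each mouse left out.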

Additional observations from a re-analysis of the deposited data

Results flagged for a closer look

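In a group of 5 libraries, a value was marked where its gap to the nearest other was more than 0.71 of the whole range of the group (Dixon's test). In the right retina of mouse 64, miR-148b-3p stood at 8618 normalised reads, while the other 4 right retinas held 1 value, 8350.2. The gap is that of 1 rank. In the left retina of mouse 68, miR-152-3p stood at 91.0 normalised reads, below the 106 to 111 of the other left retinas. Chance marks about 1 in 20 groups, and over all tested miRNAs 58 of 956 groups (6.07%) were marked.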

How the results depend on the processing

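Of the comparisons of right with left retina, 0 miRNAs passed under each of the 12 alternatives run, and the sign of each member's log2 fold change was kept in each of them that tested it. Without the replicate block, 0 of 484 miRNAs and 0 members passed, and 13 miRNAs had an unadjusted p under 0.05, among them miR-152-5p with 0.0442. Its unadjusted p was 0.0491 with median-ratio scaling and 0.0484 without mouse 65, where that of miR-152-3p was 0.0245. With each mouse left out, the log2 fold change of miR-152-5p ran from 0.26 to 0.53, that of miR-152-3p from 0.15 to 0.23, that of miR-148a-3p from 0.00 to 0.18, that of miR-148b-3p from -0.11 to -0.01, that of miR-148a-5p from 0.06 to 0.30 and that of miR-148b-5p from -0.24 to -0.04. The smallest adjusted p by limma of a member, 0.333 for miR-152-3p, came without mouse 65, where 63 miRNAs were at an unadjusted p under 0.05. With a mean of at least 100, the 5p members were not tested. The count of miRNAs that differed between mice was 8, and 5 with normal scores of ranks. With a mouse left out, where fewer animals were compared, it was 3 without mouse 68, 4 without mouse 64 or 66, 5 without mouse 61 and 7 without mouse 65, and no member passed in any of these. The share of the family moved by less than 1 SD. The right minus left difference of the log2 arm ratio ran from -0.37 to -0.08 for miR-152, from -0.14 to -0.01 for miR-148a and from 0.02 to 0.13 for miR-148b with each mouse left out. The depth is unknown, so no counting error can be given for the lowest member, miR-152-5p.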

Other observations

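The left retinas differed more among themselves than the right ones for the abundant guides. The SD over 5 mice for miR-148b-3p was 1029 normalised reads among left and 120 among right retinas, and for miR-148a-3p 863 and 316. For the sum of all 6 members it was 1872 and 312, around means of 14614 and 14692. The lowest and the highest sum were both on the left, 11923 in mouse 65 and 16953 in mouse 64. All right retinas but that of mouse 64, which was a rank higher, shared a value of miR-148b-3p. The difference in spread was noticed in the data and was not tested, and how many other miRNAs show it was not counted. For miR-152-3p the order was the other way, with SDs of 8.21 on the left and 12.96 on the right.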
